A study of Mus musculus with 10 samples.

Results

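Among 77076 accessible regions of regulatory T (Treg) cells, 1541 (2.00%) had more ATAC-seq counts without Fntb than with it in both Treg subsets. They were chosen by these counts themselves. Counts of a region were divided by the total of their library and are given as CPM, the usual unit of depth-scaled counts. A region was taken when the mean of the 4 FntbKO libraries was at least 3 CPM and at least 1.4 times the mean of the 6 WT libraries. In addition, the lowest FntbKO library had to lie above the highest WT library within eTreg cells and again within cTreg cells. The level of these regions in FntbKO against WT libraries is therefore a description and no finding, and they are called the members below.

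ATAC-seq marks DNA that a transposase can reach, which in most cells means promoters and enhancers free of nucleosomes. The libraries came from mouse Treg cells of spleen and lymph nodes, sorted from mixed bone marrow chimeras, in which marrow of different origin rebuilds the blood of 1 host. The groups were Fntb-deficient eTreg cells (FntbKO eTreg, 2 libraries), Fntb-deficient cTreg cells (FntbKO cTreg, 2 libraries), wild-type eTreg cells (WT eTreg, 3 libraries) and wild-type cTreg cells (WT cTreg, 3 libraries). The deleted part of Fntb, the way of its deletion, the marrow donors, and the age and strain of the mice are not given in the sources used here. No source says that the libraries came from separate animals, so p-values measure only the spread between these libraries, which may be technical. Library totals lay between 5058328 and 15328775 counts. At the start of Fntb, the region chr12:76837192-76837915 had 11.5 and 7.50 CPM in the FntbKO eTreg and 12.9 and 11.2 CPM in the FntbKO cTreg libraries. It had 29.0, 30.9 and 29.9 CPM in the WT eTreg and 36.4, 29.9 and 33.5 CPM in the WT cTreg libraries, so that the labels and this region go together in every library. Regions in the spans of the Treg identity genes summed to 1510 to 1541 CPM in FntbKO libraries and 1374 to 1529 CPM in WT libraries. Of the markers of other cells, 6 of 11 B cell genes, 7 of 13 myeloid genes and 4 of 8 erythroid genes had regions in their spans. Cd79a, Cd79b and Ms4a1 of B cells, Lyz2 and Csf1r of myeloid cells, and Hba-a1 of erythroid cells were among those without. Pax5, Ebf1 and Cd22 of B cells, Spi1, Cebpa and Itgam of myeloid cells, and Gata1, Klf1 and Tal1 of erythroid cells were among those with regions.

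Fntb encodes the beta subunit of protein farnesyltransferase, which puts a farnesyl group on RAS, nuclear lamins and some kinetochore proteins and so lets them bind membranes. Treg cells restrain other T cells. Central Treg (cTreg) cells resemble naive T cells and circulate through lymph nodes, where CCR7 guides them, while effector Treg (eTreg) cells carry signs of recent T cell receptor stimulation. Interferons switch on genes of the GTPase, caspase and antigen presentation families, several of which lie beside members.

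Most members lay away from gene starts, and 35 overlapped a window from 250 bases before to 50 bases after the start of a protein-coding gene. The 250 bases before 5 of these starts are printed as examples, which do not stand for all 35. Cd3d and Thrb come from the rule for named members, and Foxp1, Casp1 and Lta were chosen after their values were seen. The sequences are those of RefSeq on GRCm38.p6, read in the direction of the gene. Capitals mark GGAAG, the core of ETS factor motifs, and TTCNNNGAA, the core of STAT motifs known as GAS, searched on both strands and allowed to overlap. Of the 250 bases, 145 lay in the member at Cd3d, 249 at Thrb, 220 at Foxp1, 249 at Casp1 and 87 at Lta. The TTCNNNGAA of Cd3d lies outside the member, as do the first TTCNNNGAA and the GGAAG of Lta.
Cd3d (chr9:44981536-44981785, plus strand): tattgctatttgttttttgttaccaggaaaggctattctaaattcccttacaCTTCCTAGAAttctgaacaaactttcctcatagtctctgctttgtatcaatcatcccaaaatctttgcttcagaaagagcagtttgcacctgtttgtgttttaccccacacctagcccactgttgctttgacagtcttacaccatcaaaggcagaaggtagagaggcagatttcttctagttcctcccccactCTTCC
Thrb (chr14:17981394-17981643, plus strand): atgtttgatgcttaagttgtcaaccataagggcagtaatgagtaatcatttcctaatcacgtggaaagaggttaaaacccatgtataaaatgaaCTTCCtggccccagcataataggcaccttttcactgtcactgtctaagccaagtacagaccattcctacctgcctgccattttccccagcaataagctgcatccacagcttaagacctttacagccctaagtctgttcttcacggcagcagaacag
Foxp1 (chr6:99266516-99266765, minus strand): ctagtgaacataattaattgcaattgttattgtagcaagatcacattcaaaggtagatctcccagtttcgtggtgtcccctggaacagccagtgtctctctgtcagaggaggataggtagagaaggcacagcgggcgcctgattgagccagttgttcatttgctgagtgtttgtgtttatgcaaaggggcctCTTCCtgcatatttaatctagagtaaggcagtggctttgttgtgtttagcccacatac
Casp1 (chr9:5298267-5298516, plus strand): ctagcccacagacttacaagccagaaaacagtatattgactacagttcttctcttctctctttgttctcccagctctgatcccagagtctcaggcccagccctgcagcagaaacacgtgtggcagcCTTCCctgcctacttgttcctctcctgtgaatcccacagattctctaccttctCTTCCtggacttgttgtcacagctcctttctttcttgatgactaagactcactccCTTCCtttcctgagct
Lta (chr17:35205352-35205601, minus strand): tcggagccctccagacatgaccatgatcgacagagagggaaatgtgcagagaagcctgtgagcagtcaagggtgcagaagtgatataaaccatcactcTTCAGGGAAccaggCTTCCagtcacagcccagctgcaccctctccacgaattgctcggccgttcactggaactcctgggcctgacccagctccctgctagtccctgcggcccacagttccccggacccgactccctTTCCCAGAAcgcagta

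The 5 printed stretches were poor in CpG dinucleotides, unlike some other member promoters, which had 29 CpG at Pak6, 27 at H4c1 and 23 at App. Cd3d, which encodes the delta chain of the CD3 complex of the T cell receptor, had 0 CpG, and Thrb, the thyroid hormone receptor beta gene, had 2. Foxp1, a transcription factor gene of quiescent T cells, had 3, Casp1, which encodes the inflammatory caspase-1, had 1, and Lta, which encodes the cytokine lymphotoxin alpha, had 9. The median was 5 CpG over all 35 member promoters, 15 over the 140 promoters of regions that meet the rule with the genotypes exchanged, and 17 over the 9084 promoters that overlap any region. GGGCGG, the core of SP and KLF motifs, stood in 11 of 35 member promoters (31.4%), 67.1% of those with the genotypes exchanged and 63.7% of all. GGAAG stood in 23 of 35 (65.7%), 67.9% and 68.3%. All 5 printed stretches hold GGAAG and none holds GGGCGG. TTCNNNGAA stood in 4 of 35 member promoters (11.4%), the printed Cd3d and Lta among them. It stood in 0 of the 140 with the genotypes exchanged and in 5.61% of all. The core motif of interferon regulatory factors (IRF) stood in 0 of 35 member promoters and 2.61% of all.

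A member outside any gene span, chr3:88215477-88215832, covers the hairpin of Mir9-1, one of the genes of miR-9, a microRNA best known from the nervous system. Both mature strands are shown because the whole hairpin lies in the member, with the seed (bases 2 to 8) in capitals. The predicted gene Gm25641 lies on the opposite strand of the same bases.
miR-9-5p (chr3:88215613-88215635, plus strand): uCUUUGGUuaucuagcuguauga
miR-9-3p (chr3:88215652-88215673, plus strand): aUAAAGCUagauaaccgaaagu

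This region had 3.95 and 4.74 CPM in the FntbKO eTreg, 3.89 and 4.18 in the FntbKO cTreg, 2.49, 3.16 and 2.69 in the WT eTreg and 2.48, 2.81 and 2.35 in the WT cTreg libraries. It was chosen after its values were seen.

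The members were mostly of moderate level and moderate difference. The FntbKO mean had a median of 7.50 CPM and reached 80.8 CPM, against a WT median of 4.48 CPM. The ratio of FntbKO to WT means had a median of 1.65, with the middle part of the members between 1.51 and 1.87. It was under 1.6 in 665 members, at least 2 in 270 and at least 3 in 34, and it reached at least 2 within both subsets in 132. The eTreg ratio was larger than the cTreg ratio in 851 members. At the border of the rule, regions of Garre1 and Myl12b and 1 beside Gm4951 had ratios of 1.4 and were kept. Regions of H2-Oa (1.3998), Arrdc4 (1.3995) and 1 far from any gene (1.3996) were left out. Of all 77076 regions, 3454 (4.48%) had FntbKO libraries above WT libraries without overlap in both subsets.

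The largest ratios among members at or above the median level were 7.60 and 7.09, at Iqgap2 and near Uchl1. The region chr13:95813630-95814031 in Iqgap2, which encodes a scaffold protein that binds actin, had 6.33 and 7.11 CPM in the FntbKO eTreg and 10.2 and 9.26 CPM in the FntbKO cTreg libraries. It had 1.42, 2.44 and 1.01 CPM in the WT eTreg and 0.551, 0 and 1.07 CPM in the WT cTreg libraries. The ratio of the means was 7.60, 4.13 within eTreg and 18.0 within cTreg cells. The region chr5:66662987-66663318, 12.8 kb from Uchl1, which encodes a deubiquitinating enzyme, had 7.71 and 9.87 CPM in the FntbKO eTreg and 7.52 and 8.22 CPM in the FntbKO cTreg libraries. It had 2.37, 3.26 and 0.505 CPM in the WT eTreg and 0.276, 0 and 0.642 CPM in the WT cTreg libraries. In both regions the WT cTreg libraries had the lowest mean. The region chr4:33581922-33582353, 79.3 kb from Rngtt, the mRNA capping enzyme gene, varied most between WT libraries. It had 16.6 and 14.9 CPM in the FntbKO eTreg and 18.3 and 13.8 CPM in the FntbKO cTreg libraries. It had 7.36, 4.89 and 1.35 CPM in the WT eTreg and 6.06, 1.76 and 1.28 CPM in the WT cTreg libraries, so that WT values ran from 1.28 to 7.36 CPM.

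The members with the highest levels differed less. At chr1:141897804-141898443, over 100 kb from any protein-coding gene, the FntbKO eTreg libraries had 74.7 and 67.3 CPM and the FntbKO cTreg libraries 94.1 and 87.1 CPM. The WT eTreg libraries had 43.8, 46.1 and 17.2 CPM and the WT cTreg libraries 44.4, 46.0 and 20.9 CPM. The third WT library of each subset was low, and the same holds at chr1:141884404-141884836, which had 59.9 and 48.2 CPM in FntbKO eTreg, 71.4 and 53.4 in FntbKO cTreg, 36.9, 37.0 and 9.08 CPM in WT eTreg and 35.3, 26.3 and 17.3 CPM in WT cTreg libraries. A region of Sp100, which encodes an interferon-inducible protein of nuclear bodies (chr1:85703190-85704111), had 54.2 and 58.3 CPM in FntbKO eTreg, 63.6 and 53.2 in FntbKO cTreg, 42.6, 38.1 and 41.0 in WT eTreg, and 36.4, 19.3 and 51.7 CPM in WT cTreg libraries. A region of Tmpo, which encodes the lamina-associated polypeptide LAP2 (chr10:91153969-91154621), had 62.5 and 84.7 CPM in FntbKO eTreg and 49.7 and 75.7 in FntbKO cTreg libraries. It had 54.7, 47.8 and 46.2 CPM in WT eTreg and 38.8, 44.8 and 40.7 in WT cTreg libraries. The second FntbKO library of each subset was the higher one there.

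**Figure D1:**
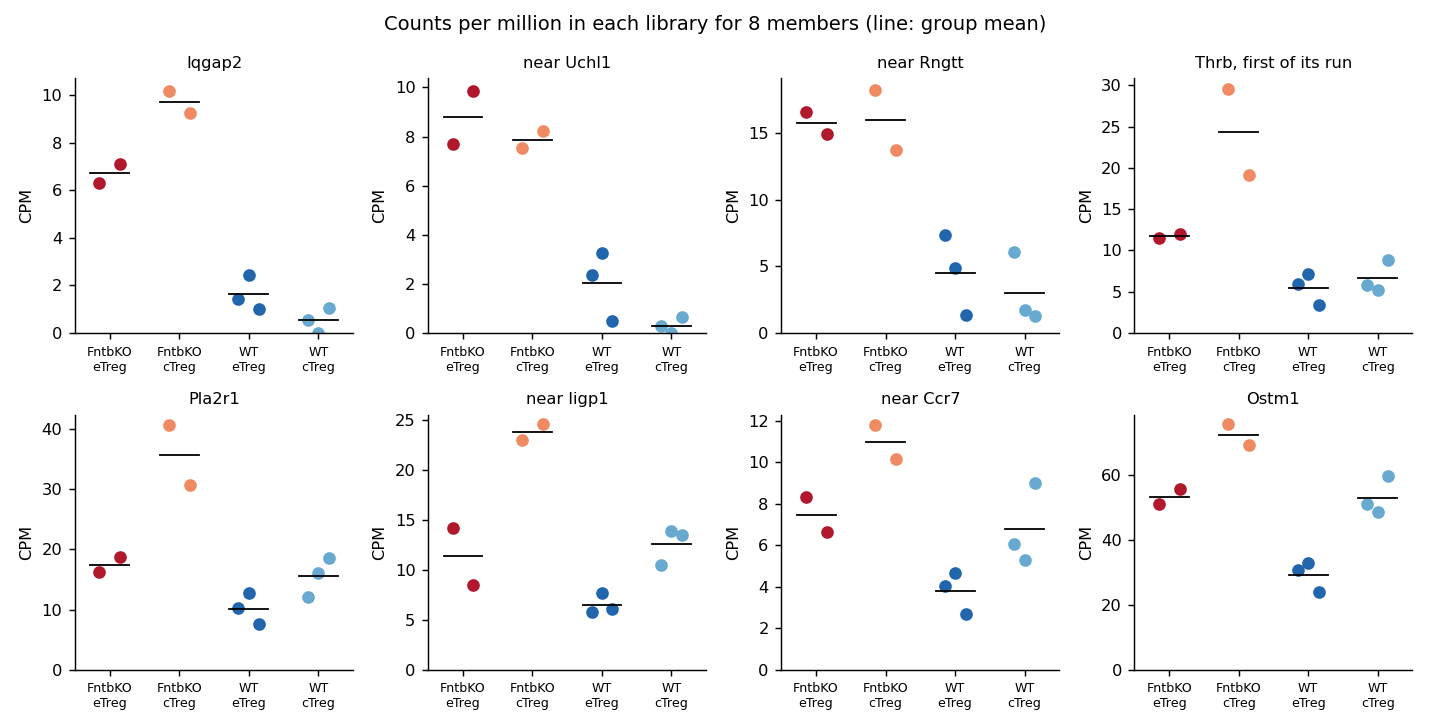
CPM (vertical axis, from 0) of 8 members in each library, with groups along the horizontal axis and a line at the group mean. The Iqgap2 region has 6.33 to 10.2 CPM in FntbKO and 0 to 2.44 CPM in WT libraries, while the Ostm1 region has 51.0 to 75.8 CPM in FntbKO and 23.9 to 59.7 CPM in WT libraries.

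No single library made the members, but some weighed more. The FntbKO cTreg 1 library was the highest of the 10 in 645 members, and the WT eTreg 3 library the lowest in 649. The members held 1.51% to 1.81% of the counts of a FntbKO library and 0.796% to 1.20% of those of a WT library. In the fit across all regions (edgeR, adjusted p under 0.05), 90 members were called higher in FntbKO eTreg than in WT eTreg cells, against 0.181% of all tested regions, and 109 in cTreg cells, against 0.19%. These comparisons were used to choose the members, and their counts are given only for completeness. The promoter windows outside members took 38.5% ± 0.519 (SD, n = 4) of the counts in FntbKO libraries and 38.5% ± 0.978 (SD, n = 6) in WT libraries, a difference within the spread (two-sided exact permutation test, adjusted p = 0.990).

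To see the difference in libraries that had no part in the choice, regions were chosen by the same rule without 1 FntbKO and 1 WT library of a subset, and the left-out libraries were then compared in them. This was done for all 12 such pairs, a comparison added after the data had been seen. With an eTreg pair left out, 2216 to 2736 regions were chosen, and the left-out FntbKO library was above the left-out WT library in 70.9% to 86.8% of them. In other regions with at least 3 CPM this share was 48.1% to 53.8%. With a cTreg pair left out, the share was 67% to 82.9%, against 45.7% to 52.5% in other regions. The median ratio of the left-out libraries, with 0.5 CPM added to each, was 1.2 to 1.53 in eTreg and 1.16 to 1.42 in cTreg cells, while in other regions it was 0.986 to 1.02 in eTreg and 0.973 to 1.01 in cTreg cells. The pairs share libraries with each other, and libraries of 1 number may share mice, so that the 12 values are no independent repeats.

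The members were distal. Of the 1473 members on chromosomes with start sites in the table, 35 (2.38%) overlapped a promoter window, against 8.28% of the regions chosen with the genotypes exchanged, 18.0% of other regions with at least 3 CPM in FntbKO cells and 12.2% of all regions. The median distance to the nearest start was 36.6 kb for members and 24.9 kb for all regions. Members lay inside gene spans about as often as regions in general, 63.9% against 62.8%, and 7.46% of them, against 5.72%, lay more than 100 kb from a protein-coding gene. The median member was 389 bp wide, against 352 bp over all regions.

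The share of members also went down with the number of genes nearby. Of regions with 0 to 5 protein-coding genes within 500 kb, 2.50% were members. The share was 2.29% with 6 to 8 genes, 1.98% with 9 to 12, 1.82% with 13 to 20 and 1.32% with 21 to 72 genes. Regions chosen with the genotypes exchanged made up 2.08%, 2.39%, 2.42%, 2.43% and 1.88% of the same classes. By assembled chromosome, the share of members ran from 1.14% on X to 3.24% on chromosome 16. In 244 windows of 10 Mb that held at least 100 regions, the share ran from 0% to 10.5%, with a median of 1.83%. The highest share was that of the 10 to 20 Mb window of chromosome 14, where 24 of 229 regions were members and 4 met the rule with the genotypes exchanged.

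**Figure D2:**
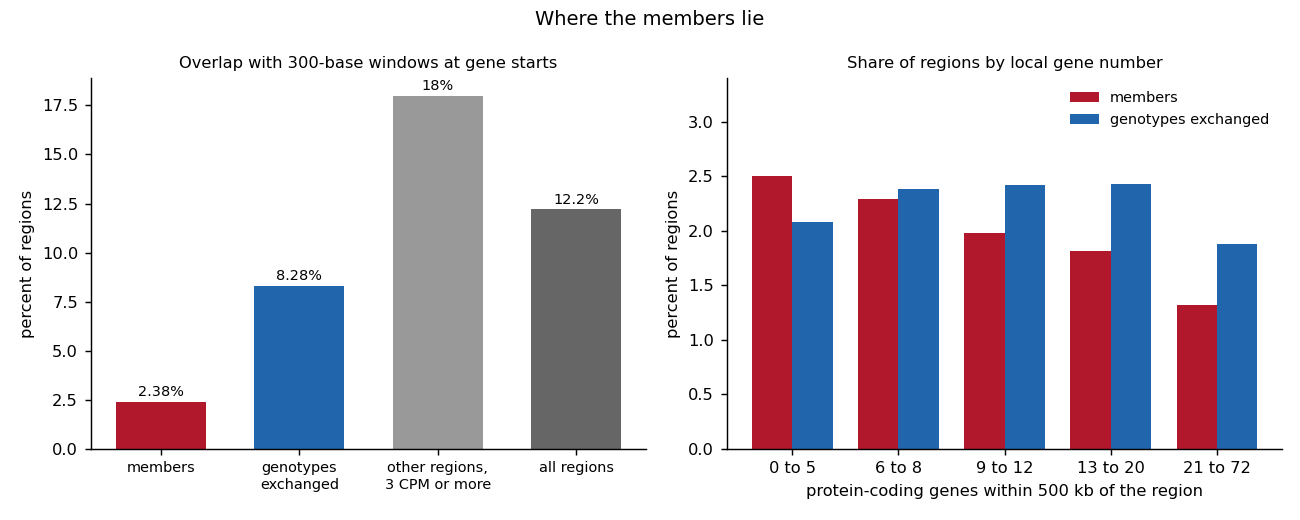
Left, percent of regions (vertical axis) that overlap a 300-base window at a gene start, for members, regions chosen with the genotypes exchanged, other regions with at least 3 CPM in FntbKO cells, and all regions. Right, percent of regions that are members or meet the exchanged rule, by the number of protein-coding genes within 500 kb; the member bars go down from 2.50% to 1.32%.

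Regions near members leaned the same way. Within 2 kb of a member, 654 other regions had a median log2 fold of FntbKO over WT of 0.20 in eTreg and 0.21 in cTreg cells. At 5 to 20 kb the median was 0.12 in both subsets, and at 100 kb or more it was -0.04 in eTreg and -0.05 in cTreg cells. These neighbours share libraries with the members, and reads near a member can fall into more than 1 region, a part that was not tested. Of the members, 515 (33.4%) lay less than 50 kb from another one, in 216 runs.

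The run with the most members covered a cluster of interferon-inducible GTPase genes. All 11 regions of chr18:60202177-60376117, from Gm4951 over Gm4841 and F830016B08Rik to Iigp1, were members, with ratios of 1.4 to 3.41 and a median of 1.80. Iigp1 encodes an immunity-related GTPase that interferon gamma induces and that attacks vacuoles of intracellular parasites. The largest ratio was at chr18:60238675-60239059 in Gm4951, with 3.36 and 5.83 CPM in FntbKO eTreg, 8.46 and 5.55 in FntbKO cTreg, 2.14, 2.24 and 1.68 in WT eTreg, and 1.10, 0.351 and 2.67 CPM in WT cTreg libraries. Higher levels were found at chr18:60373318-60373751 in Iigp1, with 17.0 and 13.4 CPM in FntbKO eTreg, 25.8 and 18.9 in FntbKO cTreg, 10.2, 12.6 and 10.8 in WT eTreg, and 9.37, 11.2 and 15.2 CPM in WT cTreg libraries. The groups were separate in both, as the rule requires, by less than 1 CPM in eTreg cells at the Iigp1 region. The 4 other regions within 50 kb of the run had ratios from 0.787 to 2.50. None is a member by the way runs were joined, since a member there would have extended the run.

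Stat4, which transmits interleukin-12 signals, held 2 members. At chr1:52014425-52014647 the FntbKO eTreg libraries had 3.16 and 2.96 CPM and the FntbKO cTreg libraries 4.97 and 3.78 CPM, against 0.949, 1.63 and 1.01 CPM in WT eTreg and 1.93, 1.4 and 3.42 CPM in WT cTreg libraries.

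Thrb and a stretch around Colq on chromosome 14 held long runs too. In Thrb, 6 of 11 regions of chr14:17923082-18022716 were members, with ratios of 1.55 to 2.98. Its region chr14:17923082-17923556 had 11.5 and 12.0 CPM in FntbKO eTreg, 29.5 and 19.2 in FntbKO cTreg, 5.93, 7.13 and 3.36 in WT eTreg, and 5.79, 5.27 and 8.88 CPM in WT cTreg libraries. The promoter region of Thrb, whose sequence is printed above, had 19.8 and 20.7 CPM in FntbKO eTreg, 16.5 and 15.6 in FntbKO cTreg, 13.1, 10.7 and 11.6 in WT eTreg, and 7.71, 7.38 and 11.9 CPM in WT cTreg libraries. The first of these regions was thus highest in FntbKO cTreg and the second in FntbKO eTreg libraries. Around Colq, which encodes the collagen tail of acetylcholinesterase, 8 of 15 regions of chr14:31494441-31597878 were members, with ratios of 1.4 to 2.49. The largest ratio was 9.35 kb from Hacl1, a peroxisomal fatty acid lyase gene, at chr14:31597467-31597878. It had 15.4 and 20.2 CPM in FntbKO eTreg, 13.3 and 15.9 in FntbKO cTreg, 7.59, 7.94 and 5.05 in WT eTreg, and 6.06, 7.38 and 5.13 CPM in WT cTreg libraries. Here the lowest FntbKO value was well above the highest WT value.

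**Figure D3:**
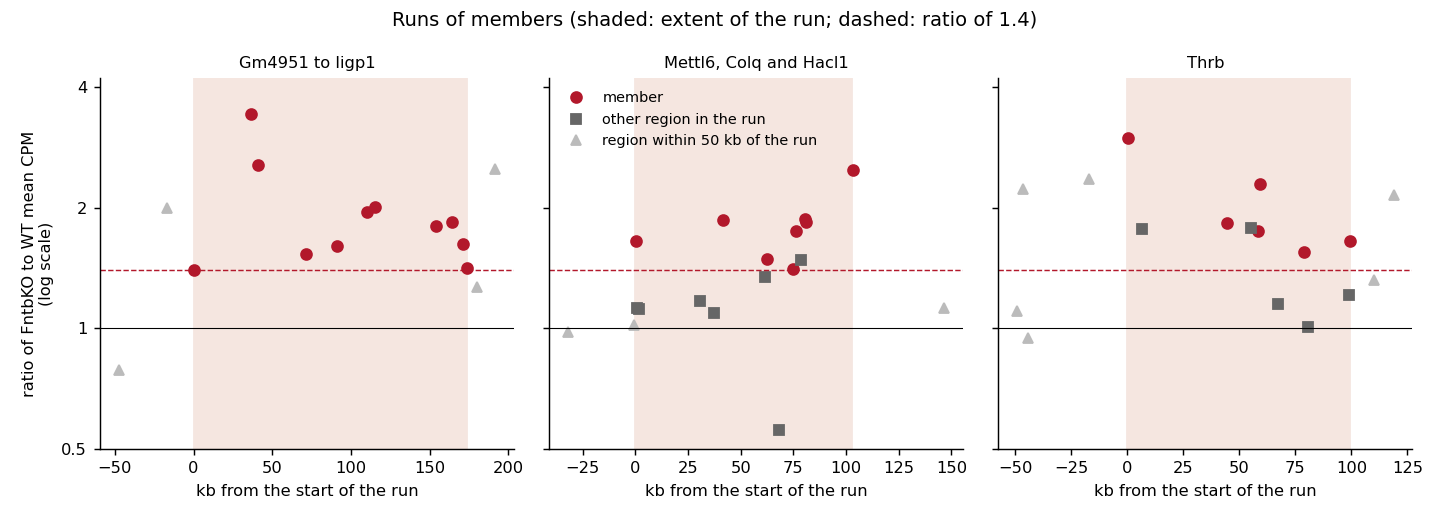
Ratio of FntbKO to WT mean CPM (vertical axis, log scale) against the distance in kb from the start of the run, for 3 runs with many members and the regions within 50 kb of them. All 11 regions of the run from Gm4951 to Iigp1 are members, while the runs at Colq and Thrb also hold regions with ratios under 1.4.

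Some genes known to respond to interferon also held members. Those named here were chosen after their values were seen, as genes that held a member. The share of members among the regions of all such genes is not reported here. Beside Gbp6, a guanylate-binding GTPase gene, the region chr5:105345195-105345650 had 3.95 and 4.94 CPM in FntbKO eTreg, 7.92 and 7.63 in FntbKO cTreg, 2.61, 3.05 and 2.35 in WT eTreg, and 1.65, 2.46 and 3.53 CPM in WT cTreg libraries. In Tap1, a peptide transporter gene of antigen presentation (chr17:34196516-34196932), the FntbKO eTreg libraries had 15.8 and 12.5 CPM and the FntbKO cTreg libraries 17.3 and 14.4 CPM, against 11.6, 12.4 and 7.74 CPM in WT eTreg and 7.99, 6.67 and 11 CPM in WT cTreg libraries. The FntbKO eTreg 2 and WT eTreg 2 libraries were nearly equal there. In Casp4, an inflammatory caspase gene (chr9:5309318-5309608), the ratio was 2.25, with 13.0 and 14.1 CPM in FntbKO eTreg, 11.3 and 11.4 in FntbKO cTreg, 7.83, 7.43 and 5.72 in WT eTreg, and 5.23, 4.74 and 2.25 CPM in WT cTreg libraries. Members with ratios of 1.43 to 1.88 lay at Casp1, Cd274 (the PD-L1 gene), Nlrc5, Samhd1, Irgm2 and Ifitm6.

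Central Treg genes held 23 members among 476 regions (4.83%), against 2.02% of all tested regions, and effector Treg genes 3 among 345 (0.870%). With the genotypes exchanged, the counts were 5 for the central and 13 for the effector list. The 23 lay at Bach2, Foxp1, Bcl2, Ccr7, Satb1, Lef1 and Foxo1. Bach2 is a repressor that keeps T cells from effector differentiation. Its region chr4:32281257-32281881 had 5.93 and 5.43 CPM in FntbKO eTreg, 9.66 and 8.22 in FntbKO cTreg, 1.42, 4.78 and 2.35 in WT eTreg, and 5.37, 5.97 and 5.67 CPM in WT cTreg libraries. The region chr11:99180088-99180650, 25.0 kb from Ccr7, had 8.30 and 6.62 CPM in FntbKO eTreg, 11.8 and 10.2 in FntbKO cTreg, 4.03, 4.68 and 2.69 in WT eTreg, and 6.06, 5.27 and 8.99 CPM in WT cTreg libraries. The FntbKO eTreg libraries lay within the WT cTreg range at both. The promoter region of Foxp1 (chr6:99266168-99266736) had 9.09 and 5.92 CPM in FntbKO eTreg, 11.7 and 10.6 in FntbKO cTreg, 2.61, 5.50 and 3.70 in WT eTreg, and 8.54, 7.73 and 7.49 CPM in WT cTreg libraries. Over all 476 regions of the central list the median log2 fold of FntbKO over WT was 0.22 in eTreg and 0.11 in cTreg cells. In bulk libraries, more cells with an open region and a region more open per cell cannot be told apart, and the part of the mixture of subset cells in a sort was not tested. The effector list had members beside Batf, which encodes an AP-1 family factor, and in Itgb8 and Rora.

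Bcl6 had 3 members near it. The region chr16:23997167-23997646, 8.30 kb from Bcl6, which encodes a transcriptional repressor that follicular helper and follicular regulatory T cells need, had 18.0 and 16.9 CPM in FntbKO eTreg, 23.6 and 25.0 in FntbKO cTreg, 11.4, 14 and 8.41 in WT eTreg, and 19.4, 16.0 and 18.5 CPM in WT cTreg libraries. Genes of T cell receptor signalling had 10 members among 453 regions (2.21%), close to the share of all regions, and 2 with the genotypes exchanged. They included the Cd3d promoter region (chr9:44981640-44981894), with 7.51 and 8.79 CPM in FntbKO eTreg, 10.6 and 10.1 in FntbKO cTreg, 4.75, 6.11 and 3.87 in WT eTreg, and 5.51, 4.04 and 8.34 CPM in WT cTreg libraries. The gap between the FntbKO cTreg and WT cTreg libraries there was smaller than the spread within WT cTreg. A region in Cblb, a ubiquitin ligase gene that restrains T cell activation (chr16:52142836-52143543), had 25.7 and 25.7 CPM in FntbKO eTreg, 49.9 and 34.9 in FntbKO cTreg, 17.0, 18.5 and 14.3 in WT eTreg, and 28.4, 17.7 and 30.9 CPM in WT cTreg libraries.

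Kinetochore genes whose products are farnesylated, Cenpe and Cenpf, held members. In Cenpe, chr3:135249876-135250344 had 7.12 and 8.10 CPM in FntbKO eTreg, 10.6 and 9.26 in FntbKO cTreg, 3.80, 4.89 and 4.37 in WT eTreg, and 3.58, 2.81 and 5.35 CPM in WT cTreg libraries. Nuclear envelope and lamina genes had 2 members, both in Tmpo, among 159 regions (1.26%) and 7 with the genotypes exchanged. The mTORC1 list had 3 members (2.44% of its regions), among them a region of Mtor. The sterol synthesis list had 2 of 83 (2.41%) and chromatin regulators 13 of 432 (3.01%). Treg identity genes had 2 of 191 (1.05%), in Ikzf2 and beside Izumo1r, TCR-induced genes 4 of 258 (1.55%), and cell cycle genes 5 of 170 (2.94%). The TGF-beta list had 8 of 256 (3.13%), the AP-1, BATF and IRF list 8 of 284 (2.82%), the NF-kB list 6 of 206 (2.91%) and the apoptosis list 5 of 185 (2.70%). B cell, CD8 T and NK cell, myeloid and dendritic cell markers had 0 members, and naive CD4 T cell markers 5 of 143, at Ccr7 and Lef1. The summed CPM within marker gene spans was 71.4 to 105 in FntbKO and 94.2 to 112 in WT libraries for B cells. For myeloid cells it was 71.0 to 104 and 81.0 to 111 CPM, and for naive CD4 T cells 991 to 1108 and 831 to 1064 CPM.

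**Figure D4:**
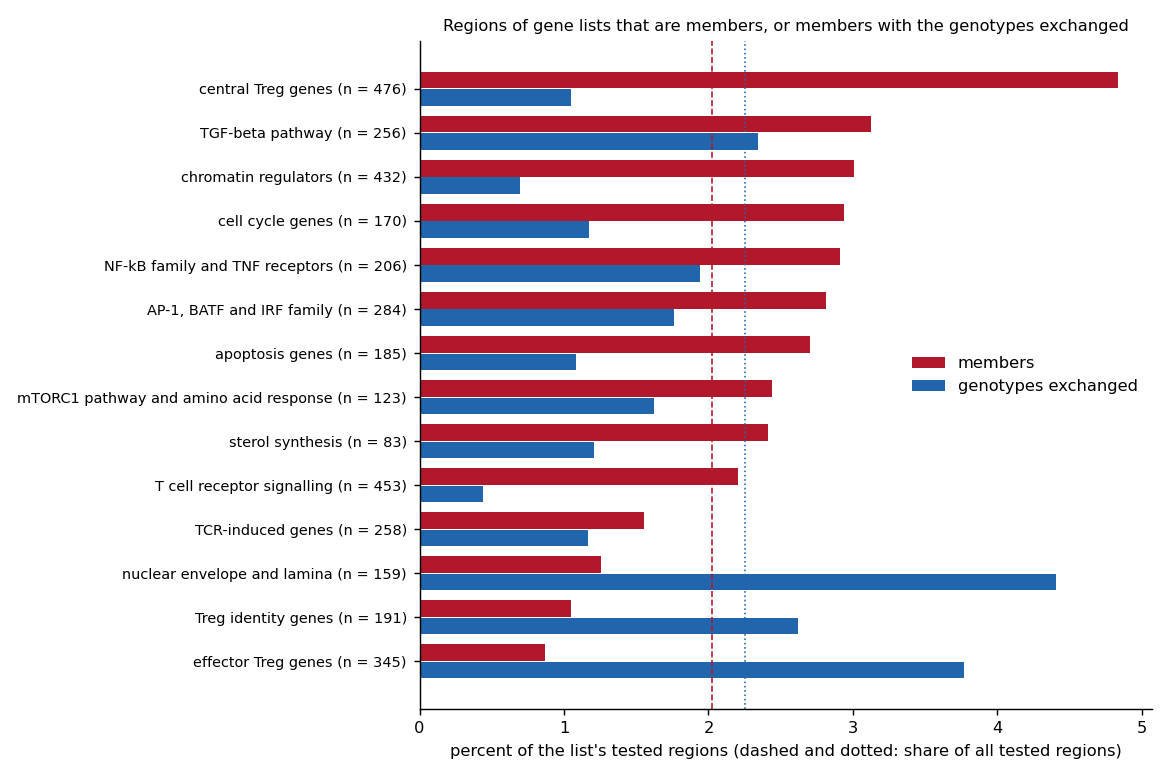
Percent of the tested regions of 14 gene lists (horizontal axis) that are members or meet the rule with the genotypes exchanged, with the share of all tested regions as dashed and dotted lines. Central Treg genes are at 4.83% for members, against 2.02% of all tested regions; lists not reported here are not drawn, and some of those have higher shares.

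The rule does not compare eTreg with cTreg cells within 1 genotype. The subset comparison uses the same libraries, however, and is not independent of the choice. FntbKO cTreg 1 was the highest library in 645 members and WT eTreg 3 the lowest in 649. A high cTreg or a low eTreg library lowers the fold of eTreg over cTreg. In regions chosen with the genotypes exchanged, FntbKO cTreg 1 held the lowest share of counts (0.828%) and WT eTreg 3 the highest (2.15%). How far the choice moved the folds was not tested. The comparison asks whether regions higher without Fntb belong to 1 of the subsets. Most members were lower in eTreg than in cTreg cells in either genotype. In WT cells the median log2 fold of eTreg over cTreg was -0.28 in members and -0.01 in all tested regions, and 1118 members (72.6%) had a negative fold. In FntbKO cells the median was -0.25 in members and -0.00 in all regions, and 1115 members (72.4%) had a negative fold. Regions chosen with the genotypes exchanged went the other way, with medians of 0.27 in WT and 0.35 in FntbKO cells. Other regions with at least 3 CPM in FntbKO cells had a median of -0.01 in both genotypes.

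In WT cells, 105 members fell in eTreg relative to cTreg cells (edgeR quasi-likelihood test, adjusted p under 0.05), which is 6.81% of the members against 1.61% of all tested regions. Another 6 rose, against 1.83% of all regions. In FntbKO cells, 18 members fell, against 0.39% of all regions, and 3 rose, against 0.966%. Of the 21 members called in FntbKO cells, 14 (66.7%) were also called in WT cells, which is 12.6% of the 111 called there. The counts depended on single libraries. The WT count was 13 when WT cTreg 3 was omitted, 21 for WT eTreg 3, 28 for WT eTreg 1 and 35 for WT cTreg 1. The FntbKO count was 0 when FntbKO cTreg 1 or FntbKO eTreg 2 was omitted, 2 for FntbKO eTreg 1, 9 for WT cTreg 3, 10 for WT eTreg 1, 33 for FntbKO cTreg 2 and 39 for WT cTreg 2.

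**Figure D5:**
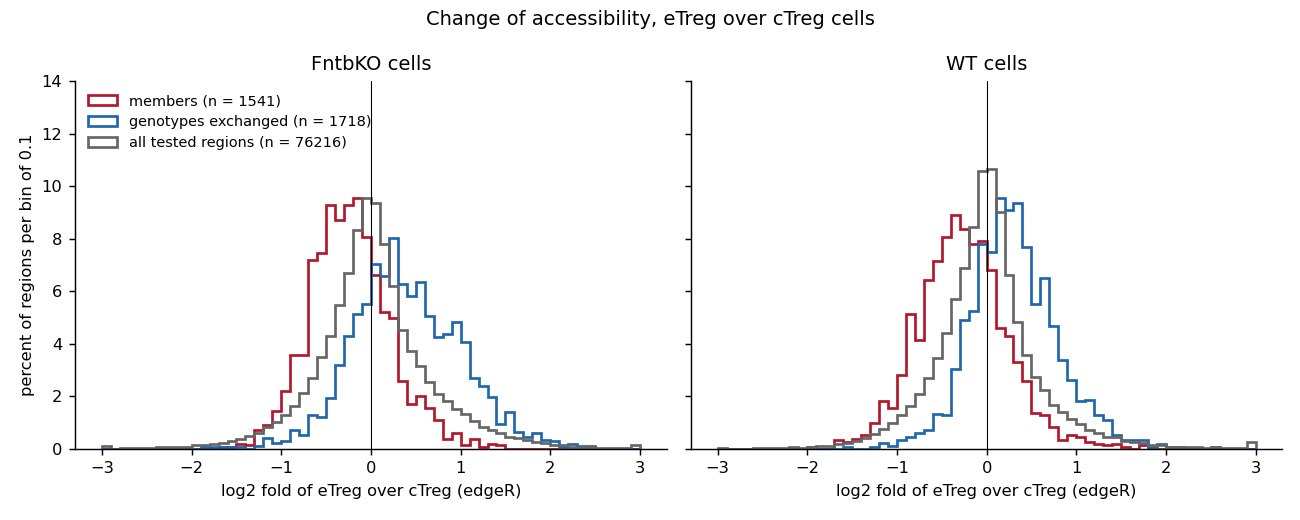
Percent of regions (vertical axis) by log2 fold of eTreg over cTreg in bins of 0.1 (horizontal axis, values beyond 3 placed in the last bin), for FntbKO cells at left and WT cells at right. Members lie to the left of all tested regions, with medians of -0.25 and -0.28, and regions chosen with the genotypes exchanged lie to the right.

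The calls in WT cells that held whichever library was left out numbered 9. Among them was Ostm1, which encodes the partner of a lysosomal chloride transporter. Its region chr10:42698984-42699447 had 30.6, 32.8 and 23.9 CPM in WT eTreg and 51.0, 48.5 and 59.7 CPM in WT cTreg libraries, a log2 fold of -0.85 (SE 0.12, edgeR adjusted p = 0.000578). In FntbKO cells it had 51.0 and 55.6 CPM in eTreg and 75.8 and 69.1 CPM in cTreg libraries, so that FntbKO eTreg libraries lay within the range of WT cTreg libraries. The region chr18:89159829-89160281, 16.7 kb from Cd226, an activating receptor gene of T and NK cells, had 27.8, 28.4 and 18.8 CPM in WT eTreg and 48.1, 42.0 and 43.6 CPM in WT cTreg libraries, a log2 fold of -0.81 (SE 0.13, adjusted p = 0.00184). Its FntbKO values were 45.9 and 38.4 CPM in eTreg and 69.3 and 58.6 CPM in cTreg libraries. The other 7 lay in Tmem64 (log2 fold -1.0), Trak1 (-0.97) and Med12l (-0.83), near Oxsm (-1.41) and Tgfbr3 (-1.64), which encodes a TGF-beta coreceptor, and far from genes on chromosomes 18 (-0.89) and 3 (0.89). The last of these was the 1 that rose.

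That region, chr3:21126135-21126679, rose in both genotypes. It had 33.6 and 47.2 CPM in FntbKO eTreg and 17.0 and 24.2 CPM in FntbKO cTreg libraries, a log2 fold of 0.96 (SE 0.20, edgeR adjusted p = 0.0158) that was not called without FntbKO cTreg 1 or without FntbKO eTreg 2, where the highest adjusted p was 0.385. It had 24.9, 27.3 and 23.5 CPM in WT eTreg and 9.64, 16.9 and 14.9 CPM in WT cTreg libraries. The groups did not overlap in either genotype.

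Other members called in FntbKO cells fell there. The region chr2:60504705-60505148 in Pla2r1, a phospholipase receptor gene, had 16.2 and 18.8 CPM in FntbKO eTreg and 40.7 and 30.7 CPM in FntbKO cTreg libraries, a log2 fold of -1.01 (SE 0.22, edgeR adjusted p = 0.0188). Omitting FntbKO cTreg 1, FntbKO eTreg 1 or FntbKO eTreg 2 ended this call, with an adjusted p of up to 0.465. A region 6.81 kb from Iigp1 (chr18:60366313-60366807) had 14.2 and 8.49 CPM in FntbKO eTreg and 23.1 and 24.6 CPM in FntbKO cTreg libraries, a log2 fold of -1.12 (SE 0.24, adjusted p = 0.0204). That call ended when FntbKO cTreg 1 or FntbKO eTreg 2 was omitted (adjusted p up to 0.346). In WT cells it had 5.81, 7.74 and 6.05 CPM in eTreg and 10.5, 13.9 and 13.5 CPM in cTreg libraries, a log2 fold of -0.93 (SE 0.22, adjusted p = 0.0171). It ended when WT cTreg 3, WT eTreg 1 or WT eTreg 3 was omitted (adjusted p up to 0.102). At the Pla2r1 region the WT groups overlapped, with 10.2, 12.7 and 7.57 CPM in WT eTreg and 12.1, 16.2 and 18.6 CPM in WT cTreg libraries, while at the Iigp1 region they did not. Regions of Ntn4 (log2 fold -1.46), Mre11a (-1.35), a DNA repair gene, Ext1 (-1.23), Zcchc24 (-1.04), Dusp10 (-0.90), a phosphatase gene of the MAP kinases, and Gm9997 (-0.84) also fell, as did the Tmem64 region (-0.83). None of the 21 calls in FntbKO cells held under every omission of 1 library.

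Over all 476 regions of the central Treg list, the median log2 fold of eTreg over cTreg was -0.23 in FntbKO and -0.34 in WT cells. Among its members, those that fell in WT eTreg relative to WT cTreg cells included regions of Bach2, Foxp1 and Bcl2. At chr4:32393228-32393608 in Bach2, the WT eTreg libraries had 4.03, 4.48 and 1.68 CPM and the WT cTreg libraries 8.95, 8.43 and 8.34 CPM, a log2 fold of -1.27 (SE 0.27, edgeR adjusted p = 0.0106). Omitting WT cTreg 3 or WT eTreg 3 ended this call, with an adjusted p of up to 0.0699. It had 6.72 and 7.90 CPM in FntbKO eTreg and 11 and 11.9 CPM in FntbKO cTreg libraries, a log2 fold that was not called. The Foxp1 promoter region had a log2 fold of -0.98 in WT cells (SE 0.27, adjusted p = 0.0437), which ended when any of WT cTreg 1, WT cTreg 3, WT eTreg 1 and WT eTreg 3 was omitted, with an adjusted p of up to 0.203. In these regions the WT eTreg libraries stood lowest of the 4 groups, which the rule and the choice of regions that fell in WT cells fix together.

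Whether the subset difference itself changed with the genotype was tested as an interaction, for which the rule bounds both genotype folds from below, and 0 members were called with edgeR, as were 0% of all tested regions. At an unadjusted p under 0.05 there were 38 members (2.47%), against 4.07% of all tested regions. DESeq2 called 0 members, with 20 at an unadjusted p under 0.05, and limma-voom 0, with 46. The median interaction was 0.03 in members and 0.01 in all tested regions, and in members it was -0.05 when WT cTreg 3 was omitted and -0.04 when WT eTreg 3 was. A difference in how the subsets respond was thus not detectable at this depth and number of libraries.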

How the data were processed

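The raw counts per region and library were deposited by the authors as 1 table of 77076 regions on mm10. Per the submitters' processing notes, the tools were MACS2 2.1.1, bedtools, Picard 2.9.4, Trimmomatic 0.36 and SAMtools. The aligner and the way mates were counted are not given in the sources used here, nor whether region starts count from 0 or 1. Counts were scaled to CPM by the library total, and the rule was applied to them. Subset and interaction comparisons used edgeR 4.0.16 (R 4.3.3) on the counts, with TMM scaling, filterByExpr, 1 mean per group over all 10 libraries, the robust quasi-likelihood test and Benjamini-Hochberg adjustment over 76216 regions, with calls at an adjusted p under 0.05. DESeq2 1.42.0 and limma 3.58.1 (voom) were alternatives. The fits were tested on simulated data. Genes are RefSeq protein-coding spans on GRCm38.p6 that overlap a region or else lie nearest within 100 kb. CPM are per whole region, not per base. Library totals of 5058328 to 15328775 counts limit the precision of weak regions. Named members were the 10 of largest ratio at or above the median level, the 10 of highest level, up to 10 called per genotype, up to 2 per gene list, the longest runs, those nearest the threshold and those at promoters. Others are said to be chosen after their values were seen, as are further members of lists, which were named by gene. The members and the gene lists were chosen with earlier results of these data known. Some genes, and the gene lists whose counts rest on them, are not reported here.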

Additional observations from a re-analysis of the deposited data

Results flagged for a closer look

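At 2 member promoters, eTreg libraries lay below cTreg libraries in FntbKO cells and above them in WT cells without overlap. The share of all regions with such a pattern is not given here, so the count of 2 is no result about the members. The region of BC024063 (chr10:82083063-82083721) had 12.3 and 12.2 CPM in FntbKO eTreg, 14.8 and 16.7 in FntbKO cTreg, 10.9, 9.77 and 10.3 in WT eTreg, and 6.89, 8.43 and 8.56 CPM in WT cTreg libraries. The difference of the log2 folds, FntbKO minus WT, was -0.75 (SE 0.30). The region of Samd3 (chr10:26229472-26229906) had 15.4 and 12.8 CPM in FntbKO eTreg, 16.6 and 18.8 in FntbKO cTreg, 12.1, 12.8 and 11.4 in WT eTreg, and 10.7, 9.13 and 10.3 CPM in WT cTreg libraries, a difference of -0.62 (SE 0.29). Neither was called by the interaction test across all regions (edgeR adjusted p = 1.0 for both).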

How the results depend on the processing

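The members called between FntbKO eTreg and FntbKO cTreg cells numbered 21, against 12 with total count scaling, 51 with a replicate block, 48 with counts halved and 32 with limma-voom. Between WT eTreg and WT cTreg cells the 111 calls became 69 with limma-voom. With 1 library left out, the FntbKO count ran from 0 to 39, the WT count from 13 to 140, the interaction count from 0 to 0 and the number of members from 1494 to 2348. At a ratio of at least 1.6 the rule gave 876 regions in place of 1541. These alternatives for folds kept the members as chosen on all 10 libraries. The median log2 folds of the members between subsets kept their sign under the alternatives run. Those between genotypes did too, but the rule largely fixes that sign, so it is no support. The median interaction of the members, 0.03, turned to -0.05 without WT cTreg 3 and to -0.04 without WT eTreg 3. Replicate numbers were not taken to pair the libraries in the main fit. Same-numbered cTreg and eTreg libraries deviated together with correlations of 0.165, 0.0833 and 0.0317 in WT and 0.180 in FntbKO cells. For cTreg and eTreg libraries of different numbers, the correlations ran from -0.130 to 0.0439 in WT cells and were -0.180 in FntbKO cells. With 2 libraries per FntbKO group, deviations from the group mean are exact opposites. The -0.180 is therefore the 0.180 with its sign changed and no separate value. Whether same-numbered libraries share mice was not tested. With a replicate block, the 111 WT calls became 157, and the interaction count stayed at 0. The cause of these changes was not tested. With 2 libraries in each FntbKO group, calls there rest on few values, and leaving 1 out assumes that the lone library varies like the other groups.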
